A study of Homo sapiens with 24 samples.

Results

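CTRL cells that had been kept in doxycycline for 24 h were compared with CTRL cells kept in it for 8 h. Both groups were chosen by the line and the time in the sample labels, and together they hold 6 of the 24 libraries of the series, 3 per group. All cells are MIA PaCa-2, an established line from a human pancreatic ductal adenocarcinoma (PDAC). The genotype of both groups is tet-on CTRL, in which the doxycycline-dependent transactivator and its promoter are present without the CEBPD cDNA, together with an mCherry marker. The sister line, C/EBPδ-inducible, is a pool of 3 clones that carries the same construct with the CEBPD cDNA and an mVenus marker. Both CTRL groups were held in 2 µg/ml doxycycline in complete medium, so that they differ in time only and neither is drug-free. The labels hold no CTRL group kept for 8 or 24 h without the drug, and the time in doxycycline and the time in culture cannot be told apart. The labels list the dose at 0 h as well, whereas the study describes those cells as untreated. The question addressed is how the response that CTRL cells show after the first hours of the drug changes over the following hours.

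Doxycycline is a tetracycline that binds bacterial ribosomes and also slows protein synthesis on the related ribosomes of mitochondria. Cells with disturbed mitochondria or short of amino acids slow general translation while the mRNA of the transcription factor ATF4 is translated more, and ATF4 with its partner CHOP (DDIT3) switches on genes for amino acid synthesis, amino acid import and tRNA charging, the integrated stress response. Lipid synthesis is set by another switch, in which low sterol releases the SREBP factors to raise genes for cholesterol and fatty acid synthesis, and the oxidant sensor NRF2 controls a further set of redox enzymes. These are textbook roles given as background, and which of them act in these cells was not tested.

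Counts on genes ranged from 16413617 to 19793613 per library in the 8 h group, with a median of 17998986, and from 19277615 to 22312401 in the 24 h group, with a median of 21617048. Values are CPM, counts scaled by TMM to libraries of one common size, and 3 counts, taken as the lowest countable level, equal 0.134 to 0.183 CPM in these 6 libraries. KRT8 and KRT18, simple-epithelial keratins that PDAC cells make, averaged 1298 ± 101 and 936 ± 49 CPM at 8 h and 1279 ± 7.4 and 1003 ± 15.5 CPM at 24 h (± SD, n = 3 here and below). Vimentin (VIM), an intermediate filament of mesenchymal and many cultured carcinoma cells, was at 6705 ± 35.7 and 6619 ± 22 CPM, and none of the 3 markers was called. Of 17 markers of fibroblasts, leukocytes, endothelium, acini and islets, 9 were at 0 counts in both groups, and 14 at 8 h and 13 at 24 h had at most 3 counts in any library. COL1A2, a collagen chain usually read as fibroblastic, was the abundant exception at 465 ± 16.8 and 525 ± 6.96 CPM (log2 fold change 0.16, adjusted p = 0.0607 in edgeR), while its partner chain COL1A1 was at 0.337 ± 0.175 and 0.349 ± 0.0973 CPM. The summed markers ranged from 451 to 484 CPM at 8 h and from 520 to 533 CPM at 24 h. In these bulk samples fewer cells with a transcript and less of it per cell cannot be told apart.

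Replicates 1 and 3 of the 8 h group stood apart from the other libraries. The deviation of each gene from its group mean correlated with the GC content of the gene in opposite directions in these libraries (Spearman rho 0.768 in replicate 1 and -0.77 in replicate 3, across 10485 genes), against -0.151 in 8 h replicate 2 and -0.242 to 0.324 in the 24 h libraries. The SD of these log2 deviations was 0.138 and 0.127 in 8 h replicates 1 and 3, and 0.0606 to 0.0646 in the 24 h libraries. Results are also given with each library left out in turn and with the GC content of each library as an offset in the model. Whether GC content underlies any single result was not tested.

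Of 15339 genes with enough counts to be tested, 375 were differentially expressed (DEGs) between 24 and 8 h in edgeR's quasi-likelihood test at a false discovery rate of 0.01, by the Benjamini-Hochberg method. This is 2.44% of the genes tested, of which 164 (1.07%) were higher and 211 (1.38%) lower at 24 h. Counts of called list members below stand beside these shares of all genes. Most changes were small. The absolute log2 fold change of a DEG had a median of 0.53 and ranged from 0.19 to 4.69, and 43 DEGs changed more than 2-fold, 15 upward and 28 downward. The 3 libraries of one time lay wholly above or below those of the other in all 375 DEGs, which was also so for 4475 genes overall (29.2% of those tested, 16.4% higher and 12.8% lower). The replicates are wells of one culture line, and p values measure the spread between these wells. With 3 libraries a side the smallest p of an exact permutation test is 0.1 (two-sided), and the calls therefore depend on edgeR's error estimate, which borrows from all genes.

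How many genes were called depended on single libraries. The count was 1195, 103 and 643 without 8 h replicate 1, 2 and 3, and 105, 96 and 74 without 24 h replicate 1, 2 and 3, and 73 of the 375 DEGs (27 higher and 46 lower) were called in all 6 of these fits. With the GC content offset, 1403 genes were called (9.15%, 5.29% higher and 3.86% lower), all 375 among them. All 375 kept their direction in each of these fits. As the groups did not overlap in these genes, leaving out 1 library could not reverse it, and this is no separate support. Of 92 called genes that the rule for naming takes, 1, 50 and 3 lost the call without 8 h replicate 1, 2 and 3, and 51, 55 and 61 without 24 h replicate 1, 2 and 3. The balance of directions moved with the fit, since 56.3% of the DEGs were lower here, whereas 57.8% were higher with the GC content offset and 59.2% were higher when all 24 libraries were fitted together. Of the 113 genes named for the comparison and its gene lists, 39 share exonic positions with a gene of the opposite strand. Besides those pointed out below, they include KRT8 and KRT18 (which overlap each other's locus), VIM, WARS1, TEAD2, HJURP, AXL, IRF1, ITGA10, EGFR, GSN, CEBPA, CEBPZ and DDIT3, and as the strand setting of the counting is not given in the sources used here, their values are less certain.

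**Figure D1:**
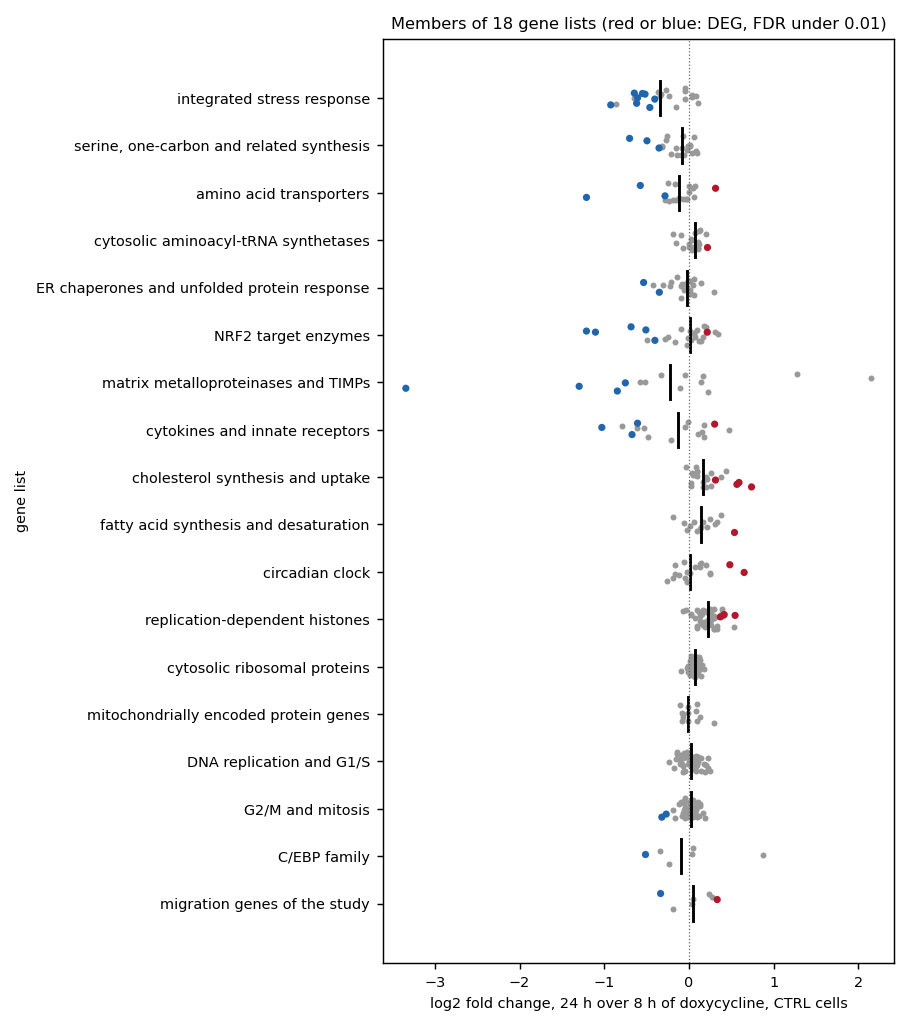
Log2 fold change from 8 to 24 h of doxycycline in CTRL cells (horizontal axis) for the members of 18 gene lists (rows). Each point is a tested gene, red where it was called higher at 24 h, blue where it was called lower and grey where it was not called, and the black bar is the list's median. The integrated stress response list has its median at -0.34 with 8 members in blue, and the cholesterol list has its median at 0.16 with 4 members in red.

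The integrated stress response was the list with the most lower genes. Of its 23 tested members, 8 fell from 8 to 24 h, none rose, and the median log2 fold change was -0.34, against -0.00058 over all genes tested. The members that fell were CHAC1, SESN2, TRIB3, VLDLR, VEGFA, CEBPB, ATF4 and DDIT4, and 14 members had all 24 h libraries below all 8 h libraries, against 12.8% of all genes. STC2, FGF21 and ADM2 had too few counts to be tested. The count of lower members was 10, 4 and 9 without 8 h replicate 1, 2 and 3, and 3, 3 and 2 without 24 h replicate 1, 2 and 3, and it was 11 with the GC content offset.

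CHAC1 (ENSG00000128965, chromosome 15 from 40952962 to 40956512 on GRCh38), an enzyme that degrades glutathione, had 21.8, 18.5 and 17.3 CPM in the 8 h libraries and 9.35, 11.3 and 10.1 CPM in the 24 h libraries. Every 24 h library was below every 8 h library (log2 fold change -0.92, SE 0.113, adjusted p = 0.000884). ATF4 itself (ENSG00000128272, chromosome 22 from 39519695 to 39522683) was at 278, 249 and 252 CPM and then 189, 189 and 194 CPM, and the groups did not overlap (log2 fold change -0.46, SE 0.0553, adjusted p = 0.000751). TRIB3, a pseudokinase that restrains ATF4 and CHOP, went from 52.6 ± 2.44 to 34.7 ± 0.957 CPM (log2 fold change -0.62, SE 0.0645, adjusted p = 0.000304). SESN2, a leucine sensor that restrains the growth kinase mTORC1, averaged 48.4 ± 4.71 and 31.3 ± 1.49 CPM (log2 fold change -0.65, SE 0.0839, adjusted p = 0.00126). VEGFA, the main growth factor of blood vessels, had 150.4, 147 and 139 CPM at 8 h and 97.9, 104 and 99.5 CPM at 24 h (log2 fold change -0.55, SE 0.0554, adjusted p = 0.000266). VLDLR, a lipoprotein receptor, was at 15.2 ± 0.665 and 10.1 ± 1.12 CPM (log2 fold change -0.61, SE 0.0984, adjusted p = 0.00455), and DDIT4, another inhibitor of mTORC1, was at 109 ± 9.61 and 83.6 ± 1.9 CPM (log2 fold change -0.40, SE 0.0694, adjusted p = 0.00609). ATF4 and DDIT4 are named as the remaining called members, a choice made after their values were seen. The exons of VLDLR, VEGFA and CEBPB overlap genes on the other strand, and their counts cannot be assigned to one strand here. DDIT3, which encodes CHOP, was not called at 12.2 ± 1.37 and 9.8 ± 0.607 CPM (adjusted p = 0.0876).

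The level at 24 h stayed above that before the drug for much of this list. Against 0 h, 14 of 22 tested members were called higher at 8 h (median log2 fold change 1.12, with 0.905% of all genes called higher and 1.7% in either direction) and 14 of 23 at 24 h (median 0.77, with 2.81% of all genes called higher and 6.06% in either direction). These comparisons share the 8 h or 24 h libraries with the step from 8 to 24 h and are given only side by side with it. CHAC1 stood at 2.35 ± 0.371 CPM at 0 h, 19.2 ± 2.36 at 8 h, 10.2 ± 0.963 at 24 h and 10.7 ± 0.988 at 48 h. TRIB3 was at 17.2 ± 1.29 CPM at 0 h and 45.4 ± 2.98 at 48 h, and ATF4 was at 114 ± 3.42 and 209 ± 6.56 CPM. VEGFA was at 52.9 ± 2.96 CPM at 0 h and 142 ± 3.95 CPM at 48 h, and VLDLR was at 3.84 ± 1.00 and 15.9 ± 1.45 CPM. For both genes the 48 h mean lay near the 8 h mean.

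Genes of amino acid supply, many of them ATF4 targets by textbook account, were divided. Of 19 tested amino acid transporters, 3 fell (SLC7A11, SLC1A4 and SLC7A1) and SLC7A6 rose, against 1.38% lower and 1.07% higher over all genes. The median log2 fold change was -0.12. SLC7A11 (ENSG00000151012, chromosome 4 from 138164097 to 138242349), the cystine importer that feeds glutathione synthesis, had 61, 82.2 and 83.6 CPM at 8 h and 32.5, 33.2 and 33.2 CPM at 24 h. Replicate 1 was the lowest of the 8 h libraries, and all of them were above the 24 h libraries (log2 fold change -1.21, SE 0.104, adjusted p = 0.000105). SLC1A4, a carrier of alanine and serine, had 49.99, 48.3 and 48.8 CPM and then 32.8, 34.4 and 32.6 CPM (log2 fold change -0.58, SE 0.0596, adjusted p = 0.0003). SLC7A1, the main importer of arginine and lysine, fell from 499 ± 10.3 to 415 ± 7.29 CPM (log2 fold change -0.28, SE 0.0382, adjusted p = 0.00161). SLC7A6, a partner-dependent exchanger of arginine and neutral amino acids, rose from 131 ± 3.78 to 165 ± 1.47 CPM (log2 fold change 0.31, SE 0.0461, adjusted p = 0.00262). The exons of SLC7A11 and SLC7A6 overlap genes on the other strand. The count of lower transporters was 4, 2 and 4 without 8 h replicate 1, 2 and 3, and 2, 2 and 2 without 24 h replicate 1, 2 and 3.

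Of 24 enzymes of serine, glycine, proline and asparagine synthesis and of folate one-carbon metabolism, 3 fell and none rose (median log2 fold change -0.08). GLDC, the glycine decarboxylase of mitochondria, went from 14.8 ± 0.945 to 9.2 ± 0.729 CPM (log2 fold change -0.70, SE 0.0947, adjusted p = 0.00161). CTH, which makes cysteine from cystathionine, went from 37.4 ± 3.8 to 26.8 ± 1.52 CPM (log2 fold change -0.50, SE 0.0822, adjusted p = 0.00515). GPT2, the mitochondrial alanine transaminase, had 143, 136 and 134 CPM and then 109, 109 and 108 CPM (log2 fold change -0.35, SE 0.0511, adjusted p = 0.00231 in edgeR). At 48 h the means of GLDC, CTH and GPT2 were 9.1 ± 0.445, 37.8 ± 1.01 and 131 ± 2.28 CPM. Among those not called, ASNS, asparagine synthetase, had 172, 176 and 174 CPM at 8 h and 174, 177 and 169.7 CPM at 24 h (log2 fold change -0.02, adjusted p = 0.857 in the same edgeR test). The serine synthesis enzymes PSAT1 and PHGDH had log2 fold changes of -0.07 and 0.01 (adjusted p = 0.48 and 0.951), and these 3 genes were singled out after their values were seen. In the comparison of 8 h with 0 h, which shares the 8 h libraries, 12 of the 24 enzymes were called higher, against 0.905% of all genes. ASNS had a log2 fold change of 1.41 there, PSAT1 one of 1.25 and PHGDH one of 1.08. The count of lower enzymes was 7, 0 and 4 without 8 h replicate 1, 2 and 3, and 1, 0 and 0 without 24 h replicate 1, 2 and 3. Of 20 cytosolic aminoacyl-tRNA synthetases, which charge tRNAs with amino acids, WARS1 rose from 599.7 ± 16.5 to 705 ± 8.55 CPM (log2 fold change 0.22, SE 0.0381, adjusted p = 0.00701) and the others were not called. At 8 h against 0 h, 10 of the 20 were called higher, against 0.905% of all genes.

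**Figure D2:**
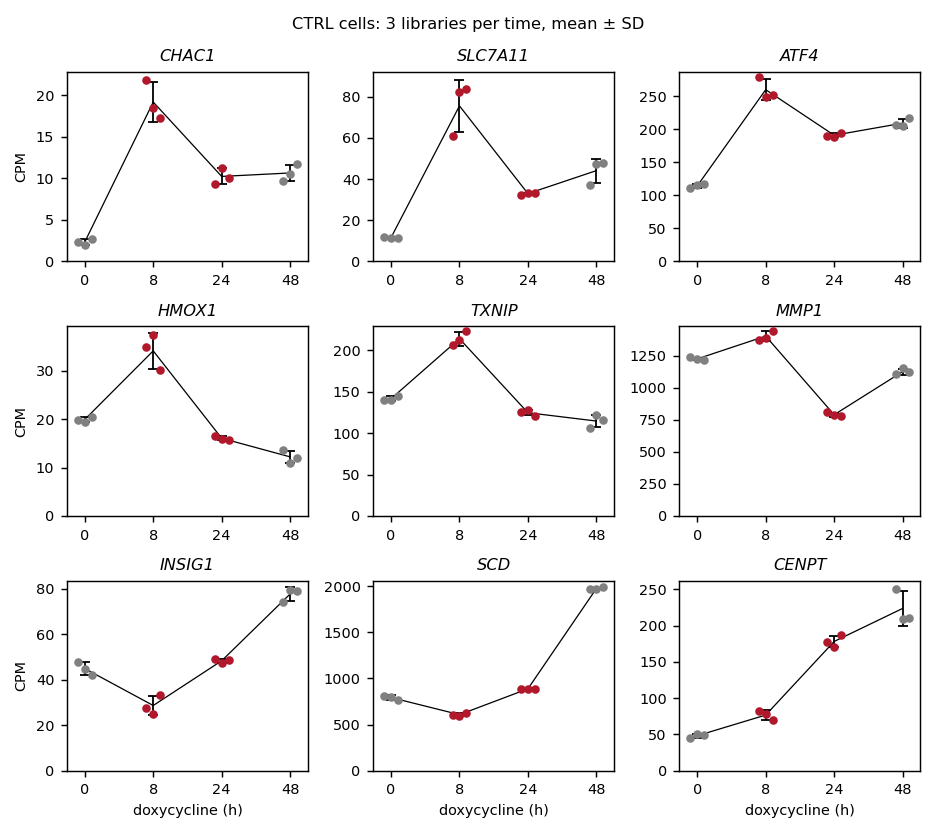
CPM (vertical axes, each from 0) of 9 genes in CTRL cells at 0, 8, 24 and 48 h of doxycycline (horizontal axes). Points are libraries, and bars show the mean ± SD of 3 libraries. CHAC1, SLC7A11, ATF4, HMOX1, TXNIP and MMP1 are lower at 24 h than at 8 h, and INSIG1, SCD and CENPT are higher.

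The promoters of 3 called genes of amino acid metabolism are shown. They were chosen because they hold the letters TGATGNAA, which ATF4 and its partners are known to bind. Called genes without a match are not shown. Each sequence runs 5′ to 3′ along the gene's strand from 250 bases before the RefSeq start site to 20 bases after it, and capitals mark the match to TGATGNAA on either strand.
CHAC1 (GRCh38.p14 chr15:40953221-40953490, plus strand): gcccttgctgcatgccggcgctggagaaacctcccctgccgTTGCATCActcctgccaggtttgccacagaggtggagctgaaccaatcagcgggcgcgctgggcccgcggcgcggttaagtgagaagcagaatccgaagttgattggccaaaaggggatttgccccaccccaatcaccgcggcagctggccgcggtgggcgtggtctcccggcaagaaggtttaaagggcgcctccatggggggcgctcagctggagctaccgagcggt
SLC1A4 (GRCh38.p14 chr2:64989149-64989418, plus strand): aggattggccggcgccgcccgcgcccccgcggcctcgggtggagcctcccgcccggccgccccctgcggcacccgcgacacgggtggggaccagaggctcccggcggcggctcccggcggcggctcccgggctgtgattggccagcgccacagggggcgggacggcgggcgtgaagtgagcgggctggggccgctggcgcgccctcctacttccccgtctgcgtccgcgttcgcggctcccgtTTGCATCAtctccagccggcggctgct
SLC7A1 (GRCh38.p14 chr13:29595669-29595938, minus strand): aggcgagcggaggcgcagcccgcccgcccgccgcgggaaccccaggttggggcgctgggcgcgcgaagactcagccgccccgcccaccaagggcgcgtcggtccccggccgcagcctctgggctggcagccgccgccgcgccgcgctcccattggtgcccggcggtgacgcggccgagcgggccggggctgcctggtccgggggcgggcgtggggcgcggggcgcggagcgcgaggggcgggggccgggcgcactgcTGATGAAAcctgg
The match began at position -209 relative to the start site in CHAC1, at -7 in SLC1A4 and at 7 in SLC7A1. In windows of 300 bases, 6 of 23 integrated stress response genes (26.1%), 3 of 15 serine and one-carbon genes (20%) and 6 of 21 amino acid transporters (28.6%) with a RefSeq window held it, against 3.62% of 35116 windows. A gene may have several windows and counts once if any of them matches, so the 2 kinds of share are not on the same base. Among called genes with a window, 1 of 7 in the integrated stress response list, 0 of 2 in the serine and one-carbon list and 2 of 3 transporters held the letters. A match of letters is a description, and binding was not measured here.

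Genes of redox defence and protein folding fell in part. Of 26 tested NRF2 target enzymes, 5 fell (SLC7A11, HMOX1, OSGIN1, ABCC2 and TXNRD1) and NQO1 rose, against 1.38% lower and 1.07% higher over all genes. The median log2 fold change was 0.02. HMOX1 (ENSG00000100292, chromosome 22 from 35380361 to 35394214), the enzyme that breaks down heme, had 34.9, 37.4 and 30.1 CPM at 8 h and 16.5, 16 and 15.8 CPM at 24 h. The 24 h libraries lay close together and below all 8 h libraries (log2 fold change -1.10, SE 0.0916, adjusted p = 7.93e-05). OSGIN1, an oxidative stress-induced growth inhibitor, went from 15.7 ± 1.49 to 9.92 ± 0.36 CPM (log2 fold change -0.68, SE 0.0964, adjusted p = 0.00205). ABCC2, an export pump for conjugated compounds, went from 137 ± 1.21 to 97.4 ± 1.45 CPM (log2 fold change -0.51, SE 0.0483, adjusted p = 0.000186). TXNRD1, thioredoxin reductase, went from 971 ± 29.6 to 743 ± 16.2 CPM (log2 fold change -0.40, SE 0.0364, adjusted p = 0.000139). NQO1, a quinone reductase usually listed among the same targets, rose from 694 ± 19.99 to 814 ± 11.2 CPM (log2 fold change 0.22, SE 0.0368, adjusted p = 0.00596), though it shares exonic positions with an antisense gene. The count of lower members was 8, 5 and 5 without 8 h replicate 1, 2 and 3, and 4, 4 and 4 without 24 h replicate 1, 2 and 3. That of higher members was 5, 0 and 2, and 0, 0 and 0, in the same fits. With the GC content offset 8 members were called lower and 5 higher. In 9 members all 24 h libraries lay below all 8 h libraries and in 7 above, against 12.8% and 16.4% of all genes tested.

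TXNIP (ENSG00000265972, chromosome 1 from 145992435 to 145996579), which binds thioredoxin and limits glucose uptake, had 206, 213 and 223 CPM at 8 h and 125, 127 and 121 CPM at 24 h (log2 fold change -0.80, SE 0.0484, adjusted p = 9.83e-06). It was the member called among 18 tested FOXO and glucose-sensing targets, and its mean of 141 ± 3.09 CPM at 0 h lay below that at 8 h. XBP1 and HERPUD1 fell among 25 tested genes of the endoplasmic reticulum (ER). XBP1, a transcription factor of the unfolded protein response, averaged 178 ± 6.93 and 124 ± 3.27 CPM (log2 fold change -0.54, SE 0.0487, adjusted p = 0.000142), and HERPUD1, of ER-associated degradation, averaged 44 ± 1.48 and 34.9 ± 1.6 CPM (log2 fold change -0.35, SE 0.0641, adjusted p = 0.00862). HSPA5, the main ER chaperone, named after its value was seen, had a log2 fold change of -0.10 (adjusted p = 0.182 in the edgeR test). The cytosolic chaperones DNAJA1 and HSP90AA1 rose, 2 of 14 tested heat shock genes. HSP90AA1 went from 4611 ± 179.9 to 5374 ± 78.1 CPM (log2 fold change 0.20, SE 0.0289, adjusted p = 0.00211) and overlaps a gene on the other strand, and DNAJA1 had a log2 fold change of 0.23 (adjusted p = 0.00844 in edgeR).

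Several secreted proteases and chemokines fell from 8 to 24 h. Of 14 tested matrix metalloproteinases, inhibitors and plasminogen activator genes, MMP1, MMP9, MMP10 and PLAUR were called lower and none higher (median log2 fold change -0.22). The count of lower members was 4 without any one of the 6 libraries. A single member (1) was called higher without 8 h replicate 1, without 8 h replicate 3 and with the GC content offset. In 5 members all 24 h libraries lay below all 8 h libraries and in 3 above, against 12.8% and 16.4% of all genes tested. MMP1 (ENSG00000196611, chromosome 11 from 102789401 to 102798160), an interstitial collagenase, had 1373, 1389 and 1443 CPM at 8 h and 807, 784 and 776 CPM at 24 h. The groups were far apart relative to their spread (log2 fold change -0.85, SE 0.0342, adjusted p = 4.83e-07). MMP1 was at 1224 ± 9.95 CPM at 0 h and 1125 ± 23.9 CPM at 48 h, so that 24 h was the lowest of the 4 times by mean. MMP10, a stromelysin, went from 9.1 ± 1.03 to 3.74 ± 0.244 CPM (log2 fold change -1.30, SE 0.122, adjusted p = 0.00018). PLAUR, the receptor of urokinase, went from 37 ± 1.34 to 22.2 ± 0.781 CPM (log2 fold change -0.75, SE 0.0691, adjusted p = 0.000152). MMP9, a gelatinase, was near the limit of detection, with 23, 21 and 21 counts at 8 h and 2, 3 and 2 counts at 24 h. Its ratio of 8 h to 24 h was 10.5 (95% exact interval 4.84 to 27.2, covering counting error only). The exons of MMP1 and MMP9 overlap genes on the other strand.

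Of 16 tested cytokines, acute-phase genes and innate receptors, 3 fell and IL1R1 rose, against 1.38% lower and 1.07% higher over all genes. IL6R, a chain of the interleukin-6 receptor, averaged 7.65 ± 1.24 and 3.82 ± 0.43 CPM (log2 fold change -1.03, SE 0.147, adjusted p = 0.00216). The neutrophil chemokines CXCL8 and CXCL5 had 79, 99.1 and 117 CPM and 29.6, 41.3 and 40.3 CPM at 8 h, and 66.3, 65.6 and 63.4 CPM and 23, 24.6 and 22.7 CPM at 24 h. Replicate 1 was the lowest 8 h library for both, and the log2 fold changes were -0.61 (SE 0.107, adjusted p = 0.00701 in edgeR) and -0.67 (SE 0.112, adjusted p = 0.00543 in edgeR). IL1R1, the interleukin-1 receptor, rose by a log2 fold change of 0.30 (adjusted p = 0.00867 in edgeR). CXCL5 and IL1R1 overlap genes on the other strand. IRF1, an interferon-responsive factor, rose from 7.85 ± 0.26 to 13.5 ± 0.407 CPM (log2 fold change 0.77, SE 0.0887, adjusted p = 0.000604) and was the member called among 28 tested interferon and MHC class I genes.

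Growth factor and adhesion signalling genes moved in both directions. Over all genes, 1.38% were called lower and 1.07% higher. Of 26 tested immediate-early factors, JUN, KLF6 and CCN1 fell and JUND, EGR1 and BTG2 rose. JUN and JUND, subunits of AP-1, went from 121 ± 7.29 to 86.5 ± 2.86 CPM and from 34.9 ± 1.13 to 51.8 ± 2.53 CPM (log2 fold change -0.50, SE 0.0613, adjusted p = 0.000884 and log2 fold change 0.56, SE 0.0639, adjusted p = 0.000565). EGR1, a zinc finger factor induced by growth factors, had 82.6, 89.8 and 90.03 CPM at 8 h and 131, 126 and 126 CPM at 24 h (log2 fold change 0.53, SE 0.0523, adjusted p = 0.000237). KLF6 and CCN1 had log2 fold changes of -0.40 and -0.34, and BTG2, an antiproliferative factor, one of 0.44 (adjusted p = 0.00191, 0.00194 and 0.0066 in edgeR). Among 24 tested ERK feedback genes, HBEGF, a ligand of EGFR, fell by 0.54 and DUSP7, an ERK phosphatase, fell by 0.32 on the log2 scale, and SPRY1, an inhibitor of receptor signalling, rose by 0.36 (adjusted p = 0.00164, 0.00558 and 0.00355 in edgeR).

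NT5E, which makes adenosine at the cell surface, had 682, 735 and 816 CPM at 8 h and 536, 522 and 503 CPM at 24 h, with replicate 3 the highest at 8 h (log2 fold change -0.53, SE 0.0556, adjusted p = 0.000304). It fell with AXL and CCN1 among 26 tested YAP and TEAD targets, of which TEAD2 rose (log2 fold change 0.40, adjusted p = 0.00532 in edgeR). The shares over all genes were 1.38% lower and 1.07% higher. ID3, an inhibitor of helix-loop-helix factors, rose from 103 ± 7.92 to 135 ± 1.11 CPM (log2 fold change 0.37, SE 0.0637, adjusted p = 0.00656) among 15 tested ID and SMAD feedback genes. FAS, the death receptor, fell from 15.4 ± 2.87 to 7.97 ± 0.183 CPM (log2 fold change -0.97, SE 0.124, adjusted p = 0.00117), and it overlaps ACTA2 on the other strand, which fell as well.

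Some genes of lipid synthesis rose from 8 to 24 h. Of 24 tested genes of cholesterol synthesis and uptake, 4 rose (INSIG1, DHCR7, SREBF1 and FDFT1) and none fell. The list's median log2 fold change was 0.16, and 14 members had all 24 h libraries above all 8 h libraries, against 16.4% of all genes. INSIG1 (ENSG00000186480, chromosome 7 from 155297776 to 155310235), which retains SREBP when sterol is plentiful and is itself an SREBP target, had 27.7, 25 and 33.1 CPM at 8 h and 48.9, 47.4 and 48.5 CPM at 24 h (log2 fold change 0.74, SE 0.0869, adjusted p = 0.000664). DHCR7, the last enzyme of one route to cholesterol, went from 24.2 ± 2.64 to 37 ± 2.45 CPM (log2 fold change 0.59, SE 0.0914, adjusted p = 0.0035). SREBF1, the gene of SREBP-1, had 118, 105 and 100.4 CPM and then 162, 160.2 and 164 CPM (log2 fold change 0.57, SE 0.0662, adjusted p = 0.00065). FDFT1, squalene synthase, went from 112 ± 3.99 to 141 ± 0.761 CPM (log2 fold change 0.31, SE 0.0491, adjusted p = 0.00381). The exons of SREBF1 and FDFT1 overlap genes on the other strand. The count of higher members was 9, 1 and 4 without 8 h replicate 1, 2 and 3, and 2, 2 and 0 without 24 h replicate 1, 2 and 3, and it was 9 with the GC content offset.

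SCD (ENSG00000099194, chromosome 10 from 100347233 to 100364826), the desaturase that makes oleic acid, had 606, 591 and 625 CPM at 8 h and 885, 888 and 890.2 CPM at 24 h (log2 fold change 0.53, SE 0.0362, adjusted p = 1.83e-05). SCD was the gene called among 15 tested genes of fatty acid synthesis and desaturation, whose median log2 fold change was 0.14. In 9 of them all 24 h libraries lay above all 8 h libraries, against 16.4% of all genes tested. The count of higher members was 6, 1 and 3 without 8 h replicate 1, 2 and 3, and 1, 1 and 1 without 24 h replicate 1, 2 and 3, and it was 8 with the GC content offset. SCD was at 793 ± 24.2 CPM at 0 h and 1977 ± 9.77 CPM at 48 h. INSIG1 and SCD were called lower at 8 h than at 0 h (log2 fold change -0.62 and -0.36, adjusted p = 0.00586 and 0.000796 in edgeR), in a comparison that shares the 8 h libraries. Of 39 tested glycolysis and hypoxia genes, LDHA and PKM rose and VEGFA fell. LDHA, lactate dehydrogenase, had 670.4, 683 and 716 CPM and then 894, 862 and 840.5 CPM (log2 fold change 0.31, SE 0.0383, adjusted p = 0.000919), and PKM, pyruvate kinase, went from 3295 ± 173 to 3940.2 ± 24.5 CPM (log2 fold change 0.24, SE 0.0399, adjusted p = 0.0052).

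The largest changes were mostly in genes of low expression. Among protein-coding DEGs of at least 1 CPM in one group, IL23R (ENSG00000162594, chromosome 1 from 67138907 to 67259979), a receptor chain for interleukin-23, changed most, with 2, 1 and 6 counts at 8 h and 82, 100 and 94 counts at 24 h. The ratio was 27.0 (95% exact interval 14.03 to 59.7), and IL23R reached 11.7 ± 0.942 CPM at 48 h. ENOX1, an NADH oxidase of the cell surface, had 5, 2 and 5 counts and then 26, 24 and 22 counts, a ratio of 5.29 (95% exact interval 2.85 to 10.7). VSIR, an immune checkpoint protein, had 3.05, 2.39 and 2.65 CPM and then 9.57, 9.12 and 8.58 CPM (log2 fold change 1.72, SE 0.127, adjusted p = 3.23e-05). NOVA2, a splicing factor known from neurons, had 1.53, 1.85 and 1.75 CPM and then 5.16, 4.88 and 5.45 CPM (log2 fold change 1.58, SE 0.151, adjusted p = 0.00019). Both had means at 48 h above those at 24 h, at 11.9 ± 1.54 and 18.7 ± 2.66 CPM, and both were called lower at 8 h than at 0 h, where they had 6.83 ± 0.326 and 3.81 ± 0.595 CPM. DHRS3, a retinal reductase, rose from 7.31 ± 0.638 to 17.3 ± 1.28 CPM (log2 fold change 1.23, SE 0.101, adjusted p = 7.93e-05). ABCG1, a sterol exporter, went from 1.62 ± 0.347 to 3.61 ± 0.262 CPM (log2 fold change 1.12, SE 0.189, adjusted p = 0.00553). The transcription factor FOXO6, the junction protein F11R, ANKEF1 and the trophoblast glycoprotein TPBG had log2 fold changes of 1.39, 1.24, 1.36 and 1.11.

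FAM20C and CENPT were the most abundant of the 12 genes with the largest rise. FAM20C (ENSG00000177706, chromosome 7 from 192571 to 260772), the kinase that phosphorylates secreted proteins, had 23.6, 22.9 and 20.4 CPM at 8 h and 51.6, 57.7 and 57.9 CPM at 24 h (log2 fold change 1.30, SE 0.0809, adjusted p = 1.07e-05). CENPT (ENSG00000102901, chromosome 16 from 67828157 to 67847811), a protein of the inner kinetochore, had 82.5, 77.7 and 69.7 CPM and then 177, 171 and 187 CPM (log2 fold change 1.20, SE 0.0711, adjusted p = 9.06e-06), with 48.1 ± 2.56 CPM at 0 h and 224 ± 23.9 CPM at 48 h. Its exons overlap TSNAXIP1, NUTF2 and THAP11 on the other strand, and reads of these genes cannot be told apart from those of CENPT here.

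The 12 largest falls held 2 metalloproteinases, MMP9 and MMP10, and 10 other genes, of which LPXN and XDH were the most abundant at 8 h. LPXN (ENSG00000110031, chromosome 11 from 58526871 to 58578220), a focal adhesion adaptor, had 19.7, 21 and 22.8 CPM at 8 h and 6.96, 7.8 and 7.13 CPM at 24 h (log2 fold change -1.55, SE 0.0921, adjusted p = 9.06e-06). XDH, xanthine dehydrogenase of purine breakdown, had 17.5, 16.8 and 16 CPM and then 6.64, 5.98 and 5.78 CPM (log2 fold change -1.47, SE 0.0951, adjusted p = 1.44e-05). CREB5, a transcription factor of the CREB family, went from 7.6 ± 0.309 to 3.22 ± 0.237 CPM (log2 fold change -1.25, SE 0.118, adjusted p = 0.000183 in edgeR). Its mean was 3.4 ± 0.241 CPM at 0 h and 6.46 ± 0.662 CPM at 48 h. FGF1, a fibroblast growth factor, went from 5 ± 0.814 to 1.58 ± 0.313 CPM (log2 fold change -1.67, SE 0.191, adjusted p = 0.000546). The other genes averaged between 2 ± 0.157 CPM (COL13A1) and 4.38 ± 0.895 CPM (SIGIRR) at 8 h. COL13A1 is a membrane-bound collagen, SIGIRR a relative of the interleukin-1 receptor and ACOX2 a peroxisomal oxidase, and their log2 fold changes were -2.86, -1.59 and -1.52. SPOCD1, NAV3 and ELMOD1 had log2 fold changes of -2.15, -2.10 and -1.35. SPOCD1, ENOX1, ANKEF1 and TPBG overlap genes on the other strand.

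**Figure D3:**
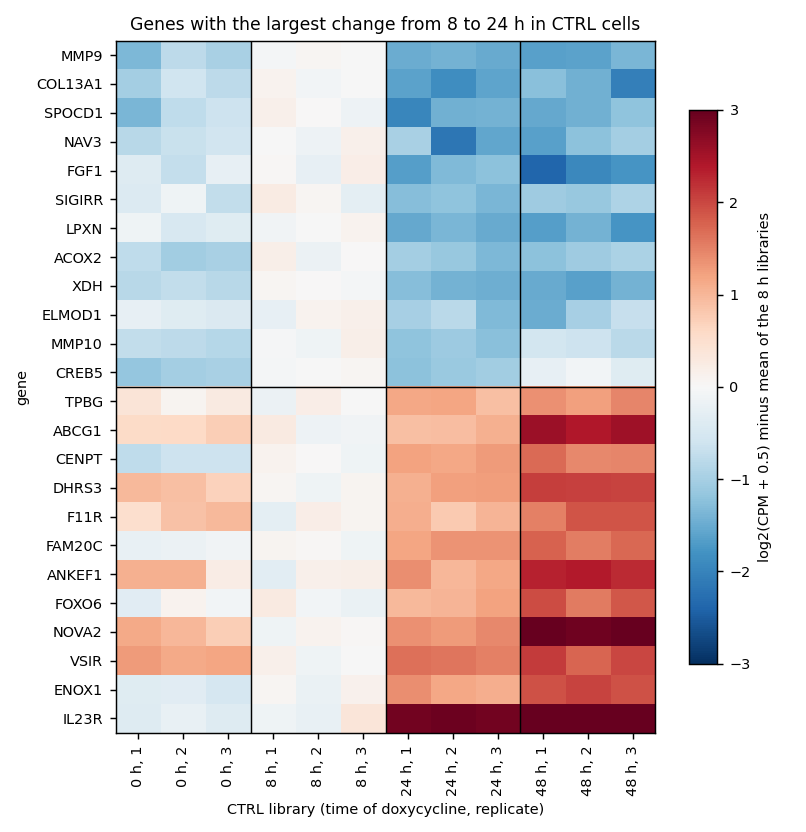
Heat map of the 12 genes with the largest rise and the 12 with the largest fall from 8 to 24 h (rows), in the 12 CTRL libraries at 0, 8, 24 and 48 h (columns). Colour is log2(CPM + 0.5) minus the mean of the 8 h libraries, red higher and blue lower, and values past 3 in either direction share the end colour. In every row the 3 libraries at 24 h lie on one side of the 3 at 8 h, and the 3 libraries of IL23R at 48 h reach the end colour.

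Genes of proliferation, ribosomes and mitochondria had few calls, in a test that called 2.44% of all genes. At that share few calls are due in lists of this size, and the counts called are no result about these families. None of 56 tested replication and G1/S genes passed the test, and of 52 tested G2/M genes UBE2C, a ubiquitin-conjugating enzyme of mitotic exit, and HJURP, the chaperone of centromeric histone, fell by 0.32 and 0.27 on the log2 scale (adjusted p = 0.00279 and 0.00543 in edgeR). None of 80 tested cytosolic ribosomal protein genes, 77 mitochondrial ribosomal protein genes, 77 nuclear-encoded respiratory chain subunits or 13 mitochondrially encoded protein genes was called, in a test that called 375 genes in all and gave 3420 genes an unadjusted p under 0.05. The medians were 0.07, 0.03, 0.08 and -0.02 on the log2 scale. All 24 h libraries lay above all 8 h libraries in 42 of the 80 cytosolic ribosomal protein genes and 34 of the 77 respiratory chain subunits. This was also so in 13 of the 77 mitochondrial ribosomal protein genes and 4 of the 13 mitochondrially encoded genes, against 16.4% of all genes tested. Without 8 h replicate 1, 19 cytosolic ribosomal protein genes and 8 respiratory chain subunits were called higher and 1 respiratory chain subunit lower, and with all 24 libraries in one model 8 and 10 were called higher. Leaving out the same library also called 3 replication and G1/S genes higher and 3 lower, 3 G2/M genes higher, 2 mitochondrially encoded genes higher and 1 mitochondrial ribosomal protein gene higher. The mitochondrially encoded genes, whose mRNAs are read by the ribosome that tetracyclines bind, were called lower in 9 of 13 at 8 h against 0 h (0.793% of all genes lower) and in 11 of 13 at 24 h against 0 h (3.25% of all genes lower). HTRA2, a mitochondrial protease, rose from 35.1 ± 0.156 to 44.1 ± 0.276 CPM (log2 fold change 0.31, SE 0.0574, adjusted p = 0.00875) among 15 tested mitochondrial chaperones and proteases, and it overlaps a gene on the other strand.

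Of 51 tested replication-dependent histone genes, H3C13, H1-3 and H2BC6 rose and none fell, with a median log2 fold change of 0.22 and 25 members with non-overlapping libraries that were higher at 24 h, against 16.4% of all genes tested. H1-3, a linker histone, had 134, 131 and 144 CPM and then 183, 182 and 187 CPM (log2 fold change 0.42, SE 0.0505, adjusted p = 0.000841). The count of higher histone genes was 11, 0 and 28 without 8 h replicate 1, 2 and 3, and 0, 0 and 0 without 24 h replicate 1, 2 and 3, and near-identical copies and an overlap of H2BC6 with another gene make single histone genes uncertain. The mRNA of these genes lacks a poly(A) tail and is kept by libraries made with ribosomal RNA depletion. Of 19 tested clock genes, DBP and PER1 rose, DBP from 7.56 ± 0.45 to 12.1 ± 0.55 CPM and PER1 from 14.1 ± 0.815 to 19.9 ± 0.444 CPM (adjusted p = 0.00239 and 0.00552 in edgeR), and DBP overlaps a gene on the other strand. The metallothionein MT1E rose by a log2 fold change of 0.27 (adjusted p = 0.00426 in edgeR) among 13 tested metallothioneins and zinc transporters, a family of near-identical genes.

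In CTRL cells 1 of 6 tested C/EBP factors was called, lower at 24 h. The 7 genes the study picked for migration had 1 called higher and 1 lower. The 13 tested genes of its epithelial-mesenchymal transition (EMT) panel had the same counts. Shares over all genes tested were 1.07% higher and 1.38% lower. CEBPB, a C/EBP factor also listed with the stress response, fell from 43.6 ± 2.16 to 30.8 ± 1.83 CPM (log2 fold change -0.52, SE 0.0723, adjusted p = 0.00194). CEBPD, the gene whose cDNA these cells lack, had 2.02, 1.32 and 2.36 CPM at 8 h and 3.4, 3.65 and 3.59 CPM at 24 h and was not called (log2 fold change 0.87, adjusted p = 0.0258 in edgeR), with 3.94 ± 0.247 CPM at 0 h. In C/EBPδ-inducible cells it was at 249 ± 15.3 and 307 ± 12.6 CPM at 8 and 24 h, in counts that do not separate the construct from the endogenous gene. CEBPG was at 105 ± 9.91 and 89.8 ± 1.37 CPM (adjusted p = 0.0539), CEBPA and CEBPZ had log2 fold changes of 0.05 and 0.04 (adjusted p = 0.836 and 0.756), and CEBPE had 2 counts in 1 of the 6 libraries and was not tested. The 7 migration genes were chosen by the study from these same libraries and are no independent evidence. Of them AXL, a receptor tyrosine kinase, fell from 173 ± 7.66 to 139 ± 1.41 CPM (log2 fold change -0.34, SE 0.053, adjusted p = 0.0039) and MYPN, a sarcomere protein, rose from 54.4 ± 2.62 to 69.4 ± 2.2 CPM (log2 fold change 0.33, SE 0.0604, adjusted p = 0.00831). EGFR, ETS1, GSN, ITGB4 and NET1 had log2 fold changes of 0.05, -0.19, 0.24, 0.27 and 0.04 (adjusted p = 0.596, 0.136, 0.0757, 0.0374 and 0.693 in edgeR). In the EMT panel, also the study's, S100A4 rose from 124 ± 4.8 to 180.4 ± 3.95 CPM (log2 fold change 0.52, SE 0.0523, adjusted p = 0.000266) and ACTA2 fell from 5.49 ± 0.0618 to 3.26 ± 0.218 CPM (log2 fold change -0.77, SE 0.124, adjusted p = 0.00431) among 13 tested genes. KRT19, a ductal keratin, fell from 207 ± 13.3 to 153 ± 4.22 CPM (log2 fold change -0.46, SE 0.0585, adjusted p = 0.00117), and ITGA10, a collagen-binding integrin chain, from 13 ± 0.965 to 8.43 ± 0.0787 CPM (log2 fold change -0.64, SE 0.095, adjusted p = 0.00271).

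The same step in C/EBPδ-inducible cells, which share no library with CTRL cells, gave 4591 DEGs of 15528 genes tested (29.6%, 14.3% higher and 15.2% lower). Of the 375 DEGs of CTRL cells, 263 (70.1%) were called in the same direction there, which is 5.73% of the 4591, and 14 were called in the opposite direction. The Pearson correlation of the fold changes was 0.386 across 14828 genes, and as genes of one set of libraries are not independent it is given without a p. The integrated stress response list had 9 members called lower and 3 higher in the C/EBPδ-inducible cells, and the cholesterol list had 14 called higher and 1 lower. Levels at 8 h differed between the lines, as for MMP1 with 1402 ± 36.8 CPM in CTRL and 10.6 ± 1.05 CPM in C/EBPδ-inducible cells.

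The step itself was tested for a difference between the lines, and 501 of 16332 genes (3.07%) were called, 314 with a more positive log2 fold change in CTRL cells (1.92%) and 187 with a more negative one (1.14%). The count was 702, 310 and 2075 without CTRL 8 h replicate 1, 2 and 3, 261, 289 and 304 without CTRL 24 h replicate 1, 2 and 3, 299, 273 and 291 without C/EBPδ-inducible 8 h replicate 1, 2 and 3, and 270, 369 and 284 without 24 h replicate 1, 2 and 3 of that line. Among them were 96 of the 375 CTRL DEGs. HMOX1, TXNIP, XDH and CHAC1 fell further in CTRL cells, with differences in log2 fold change of -0.79, -0.60, -0.81 and -0.72 (adjusted p = 0.000181, 4.18e-06, 2.54e-05 and 0.00249 in edgeR's interaction test). HMOX1 went from 39.9 ± 1.02 to 32.2 ± 1.88 CPM in C/EBPδ-inducible cells. CENPT and FAM20C rose in CTRL cells, whereas they were at 47.4 ± 1.51 and 43.1 ± 1.94 CPM, and at 18.2 ± 1.22 and 20.1 ± 1.5 CPM, in C/EBPδ-inducible cells (differences 1.34 and 1.16, adjusted p = 8.20e-08 and 6.16e-06 in edgeR). SCD and ID3 rose less in CTRL cells (differences -0.62 and -1.10, adjusted p = 2.05e-07 and 1.37e-07 in edgeR).

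Several genes that fell in both lines did not pass the test of the difference. For SLC7A11 the log2 fold change was -1.21 in CTRL and -0.86 in C/EBPδ-inducible cells (difference -0.34 ± 0.116 SE, adjusted p = 0.0746 in edgeR). For MMP1 it was -0.85 and -0.78 (difference -0.05 ± 0.282 SE, adjusted p = 0.937 in edgeR), where MMP1 stood at 6.01 ± 3.31 CPM at 24 h in C/EBPδ-inducible cells. For LPXN it was -1.55 and -1.18 (difference -0.36 ± 0.118 SE, adjusted p = 0.0625 in edgeR). A p above the threshold does not show that the lines respond alike. Of the 7 migration genes, all but GSN had a higher log2 fold change in CTRL cells, with differences from 0.41 for NET1 to 1.00 for EGFR. The study picked these genes from these same libraries and reports them lower after C/EBPδ induction, so this is no independent evidence. IL23R could not be compared, as C/EBPδ-inducible cells had 0 counts at 8 h and at most 1 at 24 h.

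**Figure D4:**
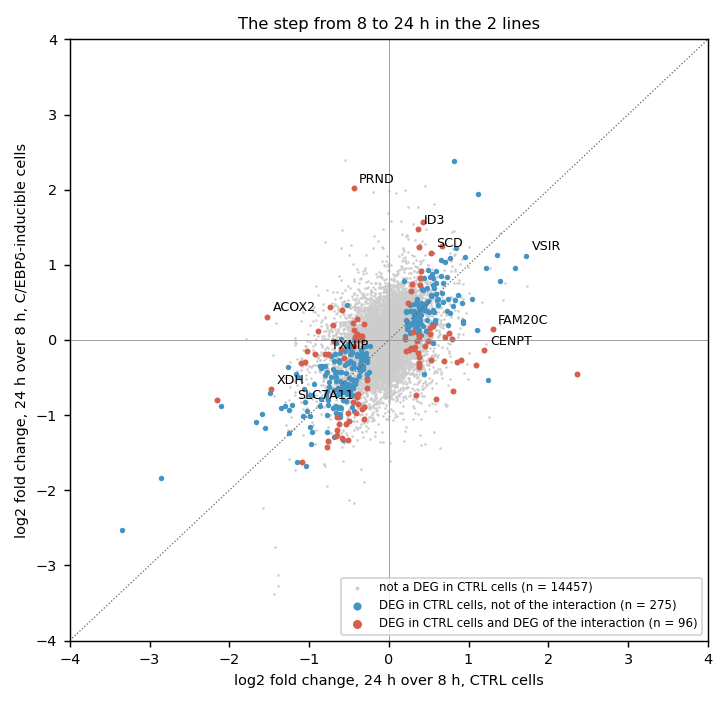
Log2 fold change from 8 to 24 h in CTRL cells (horizontal axis) against that in C/EBPδ-inducible cells (vertical axis), 1 point per gene tested in both. Grey points are 14457 genes that were not DEGs in CTRL cells, and the coloured points are 275 CTRL DEGs without and 96 with a called difference between the lines; 1 gene lies outside the axes. Of the 375 CTRL DEGs, 263 were called in the same direction in both lines.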

How the data were processed

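RNA of CTRL and C/EBPδ-inducible MIA PaCa-2 cells was depleted of ribosomal RNA and sequenced by the authors. The submitters' processing notes name Trimmomatic 0.36, HISAT2 2.3.4.3, HTSeq and GRCh38, and the strand setting is not given in the sources used here. The deposited table holds whole-number counts per Ensembl gene, without normalization, filter or pooling, as its values show, and lists 60675 identifiers (37659 with counts in these libraries). All columns were assigned to a library by name.

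Symbols, positions and exon overlaps come from GENCODE annotation on GRCh38 (56558 of 60675 identifiers matched), and promoter sequences from RefSeq on GRCh38.p14. Counts were scaled with TMM, filtered with filterByExpr and tested in R 4.3.3 with the two-sided quasi-likelihood test of edgeR 4.0.16, fitted on the 6 libraries compared (12 for the interaction) without covariates, with Benjamini-Hochberg adjustment over all genes tested and a cut-off of 0.01. CPM are TMM-scaled over all 24 libraries. Genes named are the 12 protein-coding DEGs with the largest change in each direction among those with non-overlapping libraries and a mean of at least 1 CPM in a group, up to 5 called genes per direction in each of 39 lists, the study's 7 migration genes, the C/EBP family, the markers, and up to 5 genes per direction with the largest interaction. Other names were chosen after their values were seen and are marked as such. Some genes that the rule takes are not reported here. The comparison and the lists were chosen with earlier results of these data known. Lists are described by counts and medians and were not tested as sets.

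The alternatives were DESeq2 1.42.0, RLE size factors, no filter on low counts, at least 10 counts in every library, all 24 libraries or the 12 CTRL libraries in one model, a replicate block, analysis of variance for each gene, the study's test, applied to log2(CPM + 1), each library left out, and, added after seeing the data, a GC content offset per library (a spline with 5 degrees of freedom). The edgeR test was tested on simulated counts, drawn independently from the gene means and dispersions of these libraries. They lack the GC-linked deviations of 8 h replicates 1 and 3, so the rates below need not hold for the real libraries. For the step in CTRL cells it recovered 5.53% of 199 genes changed 1.25-fold among 15136, 61.9% of 197 changed 1.5-fold among 15118 and 76.4% of 195 changed 2-fold among 15131, with 2, 2 and 3 false calls. For the interaction it recovered 0.505% of 198 genes changed 1.25-fold among 16025, 41.8% of 194 changed 1.5-fold among 16029 and 65.1% of 195 changed 2-fold among 16025. Intervals and the 3-count floor cover counting error only, since no molecular identifiers were used.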

Additional observations from a re-analysis of the deposited data

Results flagged for a closer look

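The genes below are set apart because the step from 8 to 24 h differed between CTRL and C/EBPδ-inducible cells in edgeR's interaction test at a false discovery rate of 0.01. Each value is the log2 fold change in CTRL cells minus that in C/EBPδ-inducible cells, and no explanation was tested for any of them.

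The difference was negative at -0.79 (HMOX1), -0.67 (OSGIN1), -0.60 (TXNIP), -0.72 (CHAC1), -0.81 (XDH), -1.83 (ACOX2), -0.62 (SCD), -1.10 (ID3), -0.87 (IL6R), -0.51 (TEAD2), -0.39 (CCN1) and -1.34 (SPOCD1). It was largest on the negative side at -5.08 (LYZ), -2.45 (PRND), -2.10 (TSNAXIP1) and -2.04 (HGFAC). LYZ, the gene of lysozyme, was at 3.03 ± 0.626 and 1.64 ± 0.406 CPM in CTRL cells and at 0.0871 ± 0.0799 and 1.58 ± 1.05 CPM in C/EBPδ-inducible cells, below or near the level of 3 counts at 8 h in the latter. PRND, the prion-like protein doppel, fell in CTRL cells from 48.6 ± 3.72 to 36.1 ± 1.31 CPM and rose in C/EBPδ-inducible cells from 27.8 ± 0.793 to 112 ± 3.81 CPM (adjusted p = 3.91e-12 in edgeR). TSNAXIP1 overlaps CENPT on the other strand.

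The difference was positive for 6 of the study's 7 migration genes, at 0.41 (NET1), 0.44 (MYPN), 0.47 (ETS1), 0.60 (AXL), 0.96 (ITGB4) and 1.00 (EGFR), while GSN was not called. The study picked these genes from these same libraries and reports all of them lower after C/EBPδ induction. A positive difference in them is therefore no independent evidence. For the keratins the difference was 0.70 (KRT18) and 0.84 (KRT8). KRT8 was at 66.5 ± 0.758 and 36.4 ± 3.17 CPM in C/EBPδ-inducible cells. The remaining positive differences were 0.20 (HSP90AA1), 0.22 (LDHA), 0.37 (KLF6), 0.37 (WARS1), 0.37 (S100A4), 0.44 (HTRA2), 0.59 (HBEGF), 1.16 (FAM20C) and 1.34 (CENPT), and the largest were 1.63 (SLCO1B3), 2.09 (ELOVL7), 2.83 (ENOX1), 3.23 (CREB3L3) and 4.79 (GPNMB). SLCO1B3, an organic anion importer, had 5.61, 14.96 and 17.7 CPM in the 8 h CTRL libraries, with replicate 1 apart from the others, and 13.6, 12.7 and 12.4 CPM at 24 h. CREB3L3 had 0, 1 and 2 counts in CTRL cells at 8 h and 13, 7 and 9 counts at 24 h, a ratio of 8.52 (95% exact interval 2.64 to 43.7). GPNMB, a lysosomal membrane glycoprotein, was at 1.51 ± 0.73 and 0.0893 ± 0.116 CPM in C/EBPδ-inducible cells. Its 24 h mean there was below the level of 3 counts, which is 0.134 to 0.152 CPM in those libraries, so the size of its difference is uncertain.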

How the results depend on the processing

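The 375 DEGs of the step from 8 to 24 h in CTRL cells kept their direction under the alternatives tried (369 were tested with at least 10 counts required). Their libraries did not overlap between the times, so leaving out 1 library could not reverse a direction. The number called depended on the setting. It was 952 without a filter on low counts, 690 with the 12 CTRL libraries in one model, 1374 with all 24 libraries, 1403 with the GC content offset, 244 with the replicate block and 0 in the analysis of variance (2932 genes at an unadjusted p under 0.05), and 74 to 1195 with 1 library left out. The interaction gave 501 genes, 826 with DESeq2, 1485 without the filter, 836 with all 24 libraries and 261 to 2075 with 1 library left out. For 8 h against 0 h, 259 genes became 430 with DESeq2, 843 without the filter, 1229 with all 24 libraries, 1158 with the GC content offset, 87 with the replicate block and 92 to 774 with 1 library left out, and for 24 h against 0 h, 921 became 582 with all 24 libraries and 505 to 1104 with 1 left out. The step in C/EBPδ-inducible cells gave 4591 DEGs, 4587 with the replicate block and 3541 to 4263 with 1 library left out. The cause of these shifts was not tested. Deviations from the group means correlated between same-numbered 8 h and 24 h CTRL libraries with r of -0.126, 0.00172 and -0.118. Between 0 h and 24 h r was 0.143, 0.147 and 0.19, and between 0 h and 8 h it was -0.243, -0.0321 and -0.0112. These values do not settle whether the replicate numbers pair the libraries, and the block (521 genes in the interaction) is given as a check only. At this depth and replication, changes of 1.25-fold were rarely recovered in simulated counts, so that a gene not called may still have changed by that much.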

Other observations

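Some lists held no genes beyond those already described. The p53 list of 21 tested targets had BTG2 higher and FAS and SESN2 lower, and the iron list of 14 tested genes had HMOX1 lower. None of 20 tested snoRNA host genes and none of 6 tested cyclin-dependent kinase inhibitors was called by edgeR, with median log2 fold changes of -0.07 and 0.19.

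Other letter motifs were searched on both strands of the RefSeq promoter windows. TCACNCCAC was in 1 of 19 cholesterol genes (5.26%), against 1.13% of all windows, TTATGTAA in 2 of 19 clock genes (10.5%, against 0.886%) and TGCACNC in 7 of 12 metallothionein and zinc transporter genes (58.3%, against 12.1%). TTTCCCGC was in 13 of 47 replication and G1/S genes (27.7%, against 1.63%), TTTGAA in 31 of 44 G2/M genes (70.5%, against 15.2%) and TACGTG in 12 of 38 glycolysis and hypoxia genes (31.6%, against 3.24%). A gene with several windows counts once if any matches, whereas the share over all windows counts each window, and no test was made.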
